A study of Mus musculus with 20 samples.

Results

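Expression of 10 regulators of the G1 phase of the cell cycle was followed in CD8+ effector T cells of donor origin recovered from liver, lung, small intestine and peripheral blood of mice with acute graft-versus-host disease. They were the D-type cyclins Ccnd2 and Ccnd3, the E-type cyclins Ccne1 and Ccne2, the kinases Cdk4 and Cdk6, the CDK inhibitors Cdkn1a, Cdkn1b and Cdkn2c, and the transcription factor gene Myc. All 10 had a probe, of 20886 genes with a probe on the array, and each was represented by the brightest of its probes. Of these 10 genes, 8 passed the filter on dim probes, which kept 8056 genes in all. Values are log2 signals scaled to each array's 75th percentile (below, log2 level), and signals of different probes are not compared with each other. In cells from the small intestine Ccnd3, Ccne1 and Cdkn2c were lower and Cdkn1a was higher than in cells from blood. No other pair of sites had a member past the threshold when all arrays were used. The calls were fragile. In small intestine against blood 0 members passed without the array labelled small intestine 2, and 0 with another scaling. Over the 4 sites at once 0 passed. The Ccnd3 decrease was seen on 1 of its 2 probes, and the Cdkn1a call was lost without any of 13 arrays. Cdkn1a also passed the filter only through lung and small intestine, where it was high. The Cdkn2c call was lost without any of 5 arrays, and its probe was well above background on 2 of 5 small intestine arrays.

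D-type cyclins bind CDK4 and CDK6 when a T cell is stimulated, and these complexes begin to phosphorylate the RB protein. E-type cyclins, bound to CDK2, complete that phosphorylation, E2F transcription factors are freed and DNA replication starts. The INK4 inhibitors, of which Cdkn2c encodes one, bind CDK4 and CDK6, whereas the CIP/KIP inhibitors encoded by Cdkn1a and Cdkn1b act mainly on cyclin E-CDK2. MYC is induced by antigen receptor signalling and drives the growth and division of activated T cells, and Cdkn1a is a classical target of the tumour suppressor p53.

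Recipients were female m-act OVA mice on a C57Bl/6 background, aged 8 to 16 weeks, whose ovalbumin transgene is driven by the broadly active CAG promoter. They received 11 Gy of total body irradiation as split doses of 5.5 Gy, 3 h apart, and were transplanted with 3000000 marrow cells plus 15000000 splenocytes from OT-I donors, whose CD8+ T cells carry a transgenic receptor for an ovalbumin peptide. The OT-I T cells carried the CD45.1 allele, all other graft and host cells CD45.2, and cells were collected on day 4 by magnetic positive selection for CD45.1. All groups shared this treatment and differed in site: liver, lung, small intestine or peripheral blood, with 5 one-colour Agilent arrays each. Recipients without the disease and cells before transfer were not analysed here, so blood is the only reference. The comparisons ask how effector cells in the organs attacked by the disease differ from those in the circulation. No label links an array to an animal, so p-values cover the spread among these arrays only, whose number limits the precision.

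The share of probes well above background ran over the arrays between 22.6% and 38.7%. Of 15 genes of CD8+ T cell identity, 14 or 15 were well above background on every array. The mean log2 level of the 14 tested was 5.38 to 5.64 in liver, 4.66 to 5.34 in lung, 3.75 to 5.81 in small intestine and 5.10 to 5.48 in blood. Markers of other cells were also present. The mean of 5 tested Paneth cell markers was 5.79, 6.75, 2.44, 7.24 and -3.06 on the arrays labelled small intestine 1 to 5, while the array labelled liver 5 had 4.48 and the other liver arrays -2.25 to -1.81. The lung arrays had -1.37 to 0.60 and the blood arrays -2.74 to -1.0 for the same markers. The arrays labelled liver 5 and small intestine 5 thus went against their labels in these markers, and the called results for the small intestine are also given without both. In bulk samples, fewer cells of a type and less RNA per cell cannot be told apart.

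Promoters are shown for the 4 genes that changed in the small intestine and for Cdk4, which did not pass there with all arrays. Control of these genes through their promoters was not tested. Sequences are from RefSeq on build GRCm38.p6 and run 5′ to 3′ on the strand of the gene, from 250 bases before to 50 bases after an annotated transcription start. The promoter table held 10 starts for 7 of the 10 genes, and Ccnd2, Ccne2 and Myc had no entry. Capitals mark the GC box GGGCGG, the core of sites bound by SP1-type factors, and the E-box CACGTG, the sequence preferred by MYC-MAX dimers, each on either strand.
Ccnd3, upstream start, chr17:47504801-47505100, plus strand: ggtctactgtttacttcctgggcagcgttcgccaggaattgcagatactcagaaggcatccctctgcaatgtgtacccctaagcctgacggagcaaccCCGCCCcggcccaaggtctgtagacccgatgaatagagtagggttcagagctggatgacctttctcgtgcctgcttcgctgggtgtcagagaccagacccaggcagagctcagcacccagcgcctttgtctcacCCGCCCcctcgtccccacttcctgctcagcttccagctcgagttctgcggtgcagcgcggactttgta
Ccnd3, downstream start, chr17:47593217-47593516, plus strand: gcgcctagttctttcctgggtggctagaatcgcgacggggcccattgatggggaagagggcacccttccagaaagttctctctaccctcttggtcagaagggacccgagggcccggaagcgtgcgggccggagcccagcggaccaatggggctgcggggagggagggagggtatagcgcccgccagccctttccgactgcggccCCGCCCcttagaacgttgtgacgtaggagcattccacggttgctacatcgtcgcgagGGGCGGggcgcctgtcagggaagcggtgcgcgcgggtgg
Ccne1, chr7:38107441-38107740, minus strand: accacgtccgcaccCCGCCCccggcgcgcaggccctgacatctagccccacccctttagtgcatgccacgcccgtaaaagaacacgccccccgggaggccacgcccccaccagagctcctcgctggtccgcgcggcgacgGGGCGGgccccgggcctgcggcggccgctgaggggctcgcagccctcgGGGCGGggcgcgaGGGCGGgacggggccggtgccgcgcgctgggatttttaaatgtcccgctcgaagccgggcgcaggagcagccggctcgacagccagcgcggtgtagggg
Cdk4, chr10:127063285-127063584, plus strand: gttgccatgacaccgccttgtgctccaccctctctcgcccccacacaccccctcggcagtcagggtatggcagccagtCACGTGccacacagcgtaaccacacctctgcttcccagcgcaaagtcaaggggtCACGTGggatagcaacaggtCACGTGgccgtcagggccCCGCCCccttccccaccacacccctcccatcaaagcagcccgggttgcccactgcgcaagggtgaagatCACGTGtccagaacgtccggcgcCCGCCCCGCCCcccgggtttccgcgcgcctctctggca
Cdkn1a, upstream start, chr17:29090729-29091028, plus strand: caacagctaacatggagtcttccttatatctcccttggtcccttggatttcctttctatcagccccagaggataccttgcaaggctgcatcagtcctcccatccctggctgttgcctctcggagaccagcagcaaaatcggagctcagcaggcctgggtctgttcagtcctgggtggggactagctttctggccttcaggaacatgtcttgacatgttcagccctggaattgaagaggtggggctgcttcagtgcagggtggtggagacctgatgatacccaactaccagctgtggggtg
Cdkn1a, downstream start, chr17:29093519-29093818, plus strand: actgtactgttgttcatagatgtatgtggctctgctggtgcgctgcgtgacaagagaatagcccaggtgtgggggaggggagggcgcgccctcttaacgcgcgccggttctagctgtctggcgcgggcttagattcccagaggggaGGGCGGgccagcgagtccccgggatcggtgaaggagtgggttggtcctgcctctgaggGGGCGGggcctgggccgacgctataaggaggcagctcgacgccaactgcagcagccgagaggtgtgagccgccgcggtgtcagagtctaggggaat
Cdkn2c, upstream start, chr4:109666707-109667006, minus strand: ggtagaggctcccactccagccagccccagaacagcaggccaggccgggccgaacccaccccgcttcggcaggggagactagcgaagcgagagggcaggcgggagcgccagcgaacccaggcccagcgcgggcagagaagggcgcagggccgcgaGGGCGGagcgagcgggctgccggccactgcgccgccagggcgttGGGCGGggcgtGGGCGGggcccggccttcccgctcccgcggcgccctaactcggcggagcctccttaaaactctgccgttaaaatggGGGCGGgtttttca
Cdkn2c, downstream start, chr4:109665323-109665622, minus strand: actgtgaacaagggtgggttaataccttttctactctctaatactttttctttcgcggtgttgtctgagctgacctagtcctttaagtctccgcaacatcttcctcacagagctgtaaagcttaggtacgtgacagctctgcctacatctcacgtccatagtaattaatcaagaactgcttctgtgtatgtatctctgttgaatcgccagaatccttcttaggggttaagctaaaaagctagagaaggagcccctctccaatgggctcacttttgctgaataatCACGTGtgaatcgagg

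The GC box was found in 7 of the 10 promoters of these genes, and in 35.7% of all 32851 promoters of this length. The Ccne1 promoter and the upstream Cdkn2c promoter held 4 each, and the downstream Cdkn2c and upstream Cdkn1a promoters held 0. The E-box was found in 3 of the 10 promoters and in 7.15% of all promoters. It occurred 4 times in the Cdk4 promoter, 1 time each in the downstream Cdkn2c and the Cdk6 promoter, and in none of the Ccnd3, Ccne1 or Cdkn1a windows. The E2F motifs TTTCCCGC and TTTGGCGC, of which either was present in 1.56% of all promoters, were in none of the 10 windows. A match is a description of these letters and not of binding, and the genes that were lower and the gene that was higher in the small intestine both had GC boxes in at least 1 window.

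Ccnd3 encodes the D-type cyclin needed for the expansion of immature T and B cells. Its log2 level was 4.09, 3.73, 4.32, 4.28 and 2.30 on liver arrays 1 to 5, and 4.33, 4.01, 4.24, 3.30 and 3.53 on the lung arrays. It was 1.90, 1.94, 2.41, 1.58 and 3.83 on the small intestine arrays, against 4.22, 4.53, 4.14, 4.06 and 4.39 on the blood arrays. Every small intestine array lay below every blood array, and the array labelled small intestine 5 lay nearest to them. The liver array that stood low was the one labelled liver 5, at the level of the small intestine. On the log2 scale Ccnd3 fell by 1.94 in small intestine against blood (SE 0.40, limma adjusted p = 0.017), or 3.83-fold, and was lower on 5 of 5 slides, each of which carried 1 array of every site. The median of all tested genes was -0.36 in this comparison, and relative to it Ccnd3 was at -1.58. Means in order of level were 2.33 ± 0.89 in small intestine, 3.75 ± 0.84 in liver, 3.88 ± 0.45 in lung and 4.27 ± 0.19 in blood (SD, n = 5 each), and the differences among liver, lung and blood did not pass the threshold. Without the array labelled small intestine 2, the difference was -1.84 (adjusted p = 0.058).

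**Figure D1:**
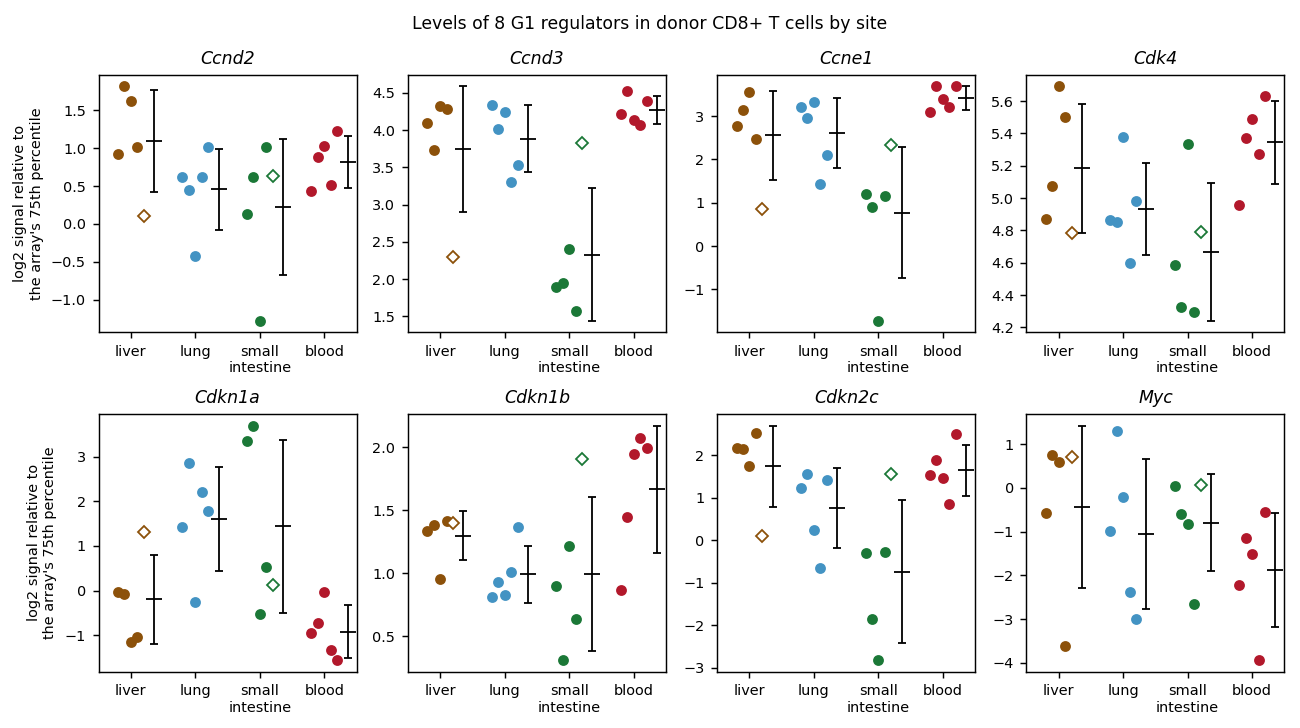
Log2 signal scaled to each array's 75th percentile (y axis) of the 8 G1 regulators that passed the filter, by site (x axis). Each point is 1 array, the lines mark the mean ± SD of 5 arrays, and the open diamonds are the arrays labelled liver 5 and small intestine 5. All small intestine points of Ccnd3 and Ccne1 lie below all blood points, while Cdkn1a is spread over 4 log2 units in the small intestine.

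In all, 4 of the 8 tested members passed in small intestine against blood, beside 875 of 8056 tested genes, or 10.9%. Of those genes 801 were lower (9.94%) and 74 higher (0.919%), and of the members 3 were lower and 1 higher. Ccnd3 and Ccne1 had no overlap between the 5 small intestine and the 5 blood arrays with the small intestine lower, as had 7.82% of all tested genes. The count of called members moved with the arrays and the scaling used. Without the array labelled small intestine 2, limma called 0 members and 0 genes, with 1936 genes at an unadjusted p under 0.05. With the percentile taken over the 6835 probes that were well above background everywhere, it called 0 members and 19 genes, 4 higher and 15 lower, with 2277 at an unadjusted p under 0.05, while the differences were -1.90 for Ccnd3, -2.60 for Ccne1, -2.35 for Cdkn2c and 2.39 for Cdkn1a, with adjusted p-values of 0.069 to 0.093. With the arrays labelled liver 5 and small intestine 5 left out, 5 members and 26.3% of the genes passed. A gene could pass the filter through a site where it is high, as Cdkn1a did through lung and small intestine, Cdkn2c through liver, lung and blood, and Myc through liver alone, so the counts over tested members are a description only.

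**Figure D2:**
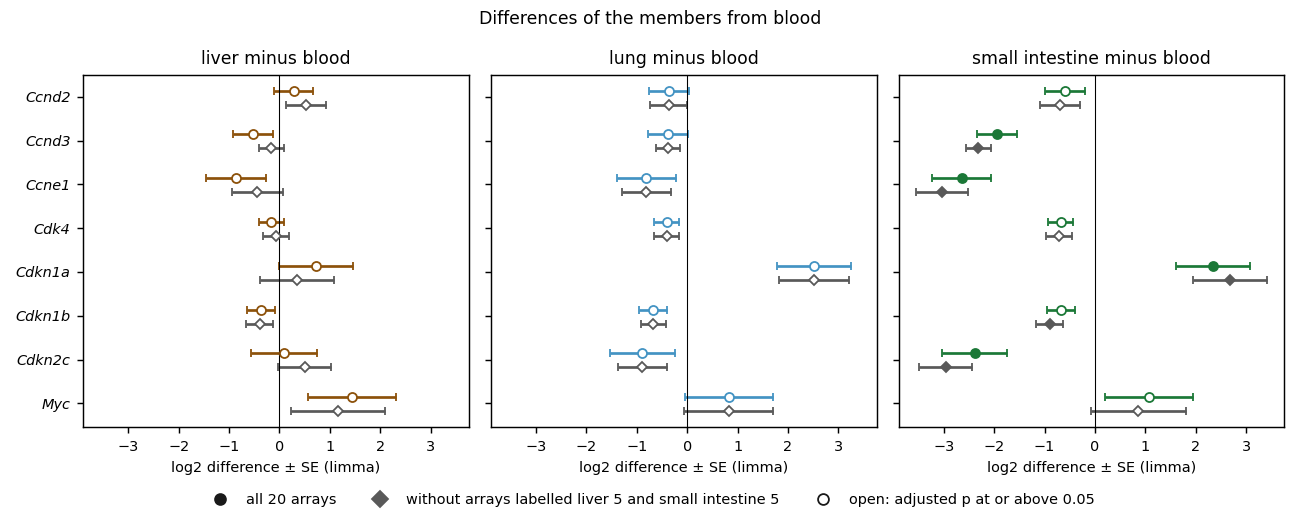
Log2 differences from blood with their SE from limma (x axis) for the 8 tested members (y axis), with liver, lung and small intestine in separate panels. The panel for the small intestine holds the 4 members past the threshold, Ccnd3, Ccne1 and Cdkn2c to the left of 0 and Cdkn1a to the right, and the liver and lung panels hold none.

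The probes of Ccnd3 did not give the same result. The values above are those of the brighter probe, A_55_P2041075, and the other, A_51_P238448, names a different RefSeq transcript of the gene. The dimmer probe was well above background on all 20 arrays and had means of 0.08 ± 0.40 in small intestine and 0.32 ± 0.42 in blood (SD, n = 5 each). Its small intestine and blood arrays overlapped, with a difference of -0.24 (SE 0.23, limma adjusted p = 0.43 in a fit over all probes). The decrease was thus seen on 1 of the 2 Ccnd3 probes.

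Ccnd2 encodes the D-type cyclin induced early in T cell activation. Levels on the log2 scale were 0.93, 1.82, 1.62, 1.02 and 0.10 in liver, 0.62, 0.44, -0.43, 0.62 and 1.01 in lung, 0.13, 0.62, -1.28, 1.01 and 0.64 in small intestine, and 0.44, 0.88, 1.03, 0.51 and 1.23 in blood. The sites overlapped throughout, and the lowest values, on lung 3 and small intestine 3, were not well above background. The difference was -0.59 (SE 0.39, adjusted p = 0.26) in small intestine against blood and 0.28 (SE 0.39, adjusted p = 0.997) in liver against blood. Against liver, small intestine was at -0.87 (SE 0.39, adjusted p = 0.21), and at -1.22 (adjusted p = 0.0504) with the liver 5 and small intestine 5 arrays left out.

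Cdk4, the catalytic partner of the D-type cyclins, was well above background on all 20 arrays. Its log2 level was 4.87, 5.07, 5.69, 5.501 and 4.78 in liver and 4.86, 4.85, 5.38, 4.60 and 4.98 in lung. It was 4.58, 4.33, 5.34, 4.30 and 4.79 in small intestine, against 4.96, 5.37, 5.49, 5.27 and 5.63 in blood. Small intestine 3 lay within the blood values and the other 4 small intestine arrays below them. The difference between small intestine and blood was -0.68 (SE 0.25, limma adjusted p = 0.073), in the same direction on 5 of 5 slides, and in lung against blood it was -0.41 (SE 0.25, adjusted p = 0.22). With the slide as a block the small intestine difference passed (adjusted p = 0.043), and it passed also without the array labelled small intestine 3 (-0.85, adjusted p = 0.022). With the liver 5 and small intestine 5 arrays left out it was -0.71 (adjusted p = 0.051). The gene has 3 probes, all well above background on all arrays. In the fit over all probes the others gave -0.89 (SE 0.26, adjusted p = 0.044) and -1.02 (SE 0.29, adjusted p = 0.041), so that 2 of the 3 probes passed and the brightest, used here, did not.

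**Figure D3:**
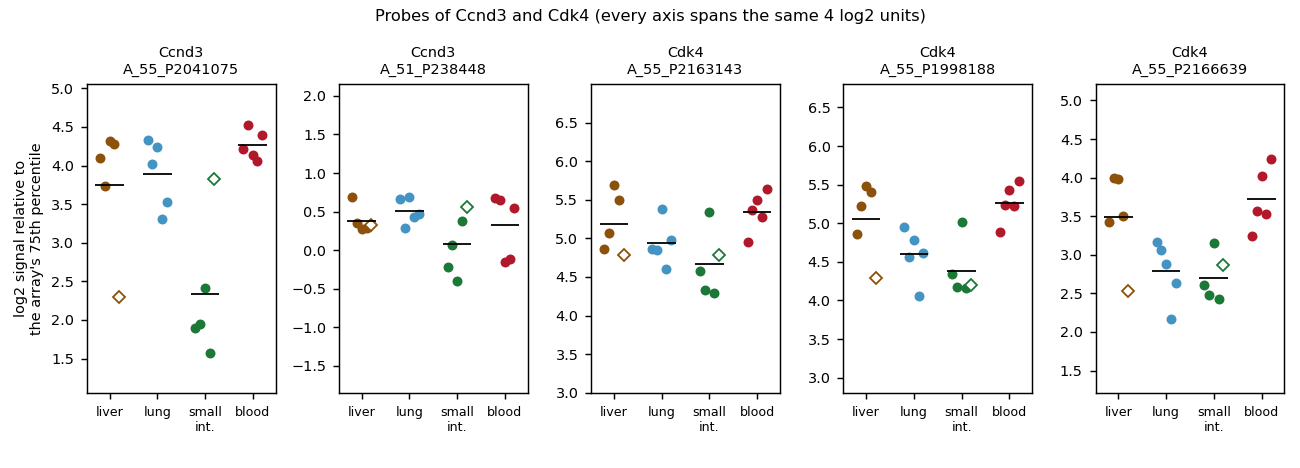
Log2 signal scaled to each array's 75th percentile (y axis) of each probe of Ccnd3 and Cdk4 by site (x axis), with 1 point per array, lines at the site means, and the arrays labelled liver 5 and small intestine 5 as open diamonds. Ccnd3 is low in the small intestine on probe A_55_P2041075 and overlaps blood on A_51_P238448, while the 3 probes of Cdk4 show similar patterns.

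Cdk6, the other partner of the D-type cyclins, and Ccne2, the other E-type cyclin, were each measured by a probe that was not well above background on any of the 20 arrays. The Cdk6 probe read -3.88 to -1.85 and the Ccne2 probe -4.20 to -2.13 over all arrays, values near the background of the scanner. Neither was tested and neither has a fold change here, and the result does not show that the transcripts were absent.

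Ccne1 encodes cyclin E1. Liver arrays had log2 levels of 2.77, 3.15, 3.55, 2.46 and 0.86, and lung arrays 3.21, 2.96, 3.32, 1.43 and 2.11. It was 1.21, 0.90, -1.72, 1.15 and 2.34 on the small intestine arrays, against 3.11, 3.69, 3.40, 3.21 and 3.69 on the blood arrays. All 5 small intestine arrays lay below all 5 blood arrays, small intestine 3 was the only array of the 20 not well above background, and the array labelled liver 5 was the lowest of the liver. On the log2 scale Ccne1 fell by 2.65 in small intestine against blood (SE 0.59, limma adjusted p = 0.017), or 6.26-fold, on 5 of 5 slides. Of all tested genes 0.236% had a lower difference. In order of level the means were 0.77 ± 1.50 in small intestine, 2.56 ± 1.03 in liver, 2.61 ± 0.81 in lung and 3.42 ± 0.27 in blood (SD, n = 5 each). Lung and liver against blood were at -0.81 (adjusted p = 0.30) and -0.86 (adjusted p = 0.997), each with an SE of 0.59. Without the array labelled small intestine 2, the small intestine difference was -2.68 (adjusted p = 0.058), and without small intestine 3, the array near background, it was -2.02 (adjusted p = 0.015). A further Ccne1 probe, A_66_P125327, did not rise well above background on any array, so the result rests on A_51_P408946.

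Cdkn2c encodes an INK4 inhibitor of CDK4 and CDK6 that restrains the division of lymphocytes. Its log2 level was 2.17, 2.15, 1.75, 2.53 and 0.09 in liver and 1.24, 1.56, 0.24, -0.65 and 1.43 in lung. It was -0.29, -1.84, -2.82, -0.29 and 1.56 in small intestine, against 1.55, 1.90, 1.46, 0.86 and 2.50 in blood. Small intestine arrays 1 to 4 lay below every blood array, the array labelled small intestine 5 lay among them, and the probe was well above background on 2 of 5 small intestine arrays and on all 5 in liver and in blood. Cdkn2c fell by 2.39 in small intestine against blood (SE 0.65, limma adjusted p = 0.029), or 5.24-fold, on 5 of 5 slides, a size that is uncertain where the probe is near background. The lung difference was -0.89 (SE 0.65, adjusted p = 0.30), lower on 5 of 5 slides. The small intestine call was lost without any of the arrays blood 2, 3 or 5 or small intestine 2 or 4, with differences of -2.50 to -2.11 and adjusted p-values of 0.0523 to 0.0922, and without the filter on dim probes (adjusted p = 0.054).

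With the arrays labelled liver 5 and small intestine 5 left out, these 3 genes stood further apart. Ccnd3 was then at 1.96 ± 0.34 in small intestine, 4.11 ± 0.27 in liver and 4.24 ± 0.20 in blood on arrays 1 to 4. In the fit that kept all other arrays, its difference from blood was -2.31 (SE 0.25, limma adjusted p = 1.1e-05), that of Ccne1 -3.04 (SE 0.51, adjusted p = 0.00091) and that of Cdkn2c -2.96 (SE 0.52, adjusted p = 0.0012). Against liver the differences were -2.15, -2.60 and -3.46, with adjusted p-values of 7.3e-05, 0.0056 and 0.00081. Against lung they were -1.93, -2.22 and -2.07, with adjusted p-values of 0.00020, 0.025 and 0.041. Of all tested genes 26.3% passed against blood in this fit, 16.3% against liver and 2.63% against lung. The 2 arrays were picked by marker levels in these same data, so these p-values are a description only.

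Cdkn1a encodes the CIP/KIP inhibitor that p53 and growth-arrest signals induce. On liver arrays 1 to 5 the log2 level was -0.04, -0.07, -1.14, -1.03 and 1.32, and 1.42, 2.86, -0.25, 2.20 and 1.79 on the lung arrays. It was 3.34, 3.69, -0.51, 0.54 and 0.12 on the small intestine arrays, against -0.94, -0.72, -0.02, -1.32 and -1.55 on the blood arrays. Lung 1, 2, 4 and 5 and small intestine 1, 2, 4 and 5 lay above every blood array, lung 3 and small intestine 3 lay within the blood values, and the array labelled liver 5 was the highest of the liver. The probe was well above background on 3 of 5 liver, 4 of 5 lung, 4 of 5 small intestine and 2 of 5 blood arrays. It thus passed the filter through lung and small intestine only, where it was high. Cdkn1a rose in small intestine against blood by 2.35 (SE 0.73, limma adjusted p = 0.045), a size that is uncertain because 3 of the 5 blood arrays were not well above background. With the liver 5 and small intestine 5 arrays left out the difference was 2.68 (SE 0.74, adjusted p = 0.016). In lung it was 2.52 above blood (SE 0.73, adjusted p = 0.099), and in liver 0.72 (SE 0.73, adjusted p = 0.997). The small intestine call was lost without any of 13 arrays, liver 1, 2 or 4, lung 1 or 5, blood 1 to 5 or small intestine 1, 2 or 4, with differences of 1.78 to 2.57 and adjusted p-values of 0.0512 to 0.142. It was lost also with normexp background correction (1.49, adjusted p = 0.061), with the deposited value table (2.47, adjusted p = 0.063) and without the filter on dim probes (adjusted p = 0.086). The lung difference passed without the array lung 1 (2.56, adjusted p = 0.049) or lung 3 (2.98, adjusted p = 0.048). The other probe of the gene, A_55_P1986282, did not rise well above background on any array.

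Over all sites, the arrays highest in the tested markers of the dendritic cell list were also highest in Cdkn1a. That list also holds the MHC class II genes H2-Aa and H2-Ab1 and the invariant chain gene Cd74. The mean log2 level of the 4 tested of 9 dendritic cell markers was 3.09, 3.42, 1.15, 4.96 and 4.56 on the lung arrays and 4.86, 5.04, 1.27, 3.77 and 1.31 on the small intestine arrays. It was 0.16 to 1.00 on liver arrays 1 to 4, 3.82 on the array labelled liver 5, and -0.15 to 1.35 on the blood arrays. The arrays where Cdkn1a was lowest in lung and small intestine, lung 3 and small intestine 3, were the lowest of their sites in these markers too. Blood 3 was the lowest of its site in these markers and the highest in Cdkn1a, and blood 5 was the reverse. Cdkn1a was well above background on 2 of 5 blood arrays. Of the 9 markers, 2 to 4 were well above background on a liver array, 2 to 4 on a lung array, 3 to 7 on a small intestine array and 2 to 4 on a blood array. In lung, alveolar macrophage markers were lowest on lung 3, as Cdkn1a was, but did not follow its order on the other lung arrays. The mean of the 10 tested of 11 was 2.55, 2.58, -2.17, 5.03 and 4.00 on lung arrays 1 to 5. It was -2.76 to -2.14 in liver, -2.60 to -0.76 in small intestine and -3.22 to -1.55 in blood. Lung epithelium markers had the same order as Cdkn1a over the 5 lung arrays. The mean of the 4 tested of 8 was 1.42, 3.43, -0.71, 2.25 and 1.63 there. That mean was -1.79 to -1.07 in liver, -2.07 to -0.81 in small intestine and -2.23 to -0.88 in blood. The mean of the 2 tested of 12 monocyte and macrophage markers was 2.63, 2.74, -1.17, 4.47 and 3.46 on the lung arrays. It was 4.55, 5.27, -0.20, 3.67 and -2.01 on the small intestine arrays, -1.70 to 1.31 in liver and -2.41 to -0.39 in blood. The markers thus do not single out 1 cell type, and the part of any of these cells in the Cdkn1a result was not tested. The mean of the CD8+ T cell genes was 4.72, 4.02, 5.81, 3.75 and 5.48 on small intestine 1 to 5, against 5.10 to 5.48 in blood. Of the genes that fell in the small intestine, Ccne1 and Cdkn2c were lowest on small intestine 3, where neither was well above background. Ccnd3 was at 2.41 on that array, the highest of small intestine 1 to 4. The part of other cells in those decreases was likewise not tested.

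**Figure D4:**
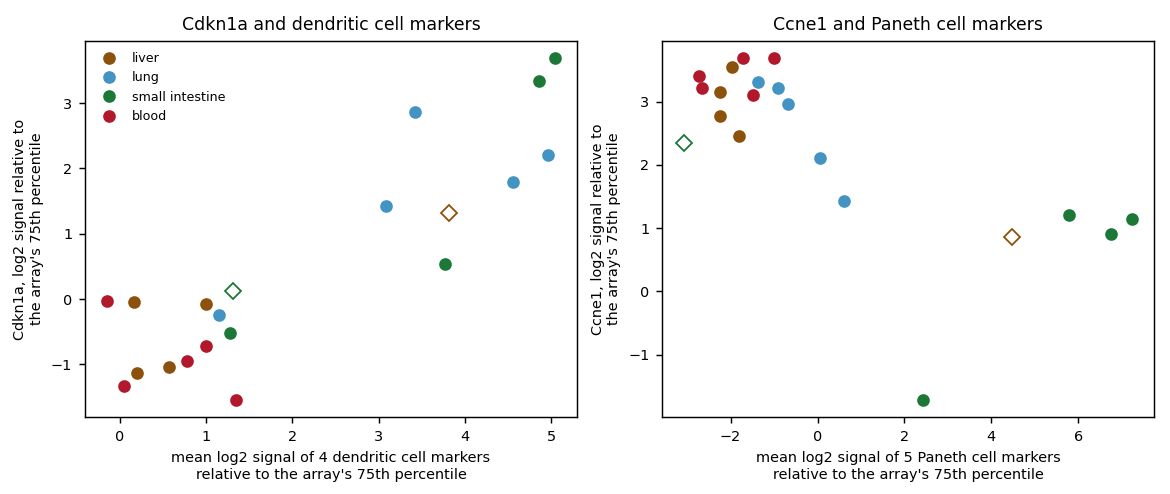
Left, Cdkn1a against the mean of 4 dendritic cell markers, and right, Ccne1 against the mean of 5 Paneth cell markers, with both axes in log2 signal scaled to each array's 75th percentile and 1 point per array. Open diamonds are the arrays labelled liver 5 and small intestine 5. The 8 arrays with a dendritic marker mean above 3 had Cdkn1a levels of 0.54 to 3.69 and the other 12 at most 0.12. The array labelled liver 5 lies among lung and small intestine arrays on the left and nearest to small intestine arrays on the right.

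Cdkn1b encodes the CIP/KIP inhibitor that is abundant in resting T cells and is degraded when they divide. It was well above background on all 20 arrays. Its log2 level was 1.34, 1.39, 0.95, 1.42 and 1.39 in liver and 0.81, 0.93, 0.83, 1.01 and 1.37 in lung. It was 0.90, 0.31, 1.22, 0.64 and 1.90 in small intestine, against 0.87, 1.45, 1.94, 2.07 and 1.99 in blood. Blood 1 lay below every liver array and the other 4 blood arrays above all of them, and lung and small intestine overlapped with blood. The difference from blood was -0.37 in liver (adjusted p = 0.997), -0.67 in lung (adjusted p = 0.13) and -0.67 in small intestine (adjusted p = 0.11), each with an SE of 0.28. Lung was lower on 5 of 5 slides and small intestine on 4 of 5. With the arrays labelled liver 5 and small intestine 5 left out, Cdkn1b fell by 0.90 in small intestine against blood (adjusted p = 0.021), and leaving out the array labelled small intestine 5 alone gave the same call (adjusted p = 0.020).

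Myc was well above background on 9 of the 20 arrays, 4 of them in liver, its highest site, through which alone it passed the filter. Arrays 1 to 5 read -0.58, 0.74, 0.58, -3.603 and 0.70 in liver, -0.99, 1.29, -0.21, -2.38 and -2.99 in lung, 0.04, -0.59, -0.83, -2.66 and 0.05 in small intestine, and -2.23, -1.16, -1.50, -3.93 and -0.56 in blood. The lowest readings were on array 4 in liver, small intestine and blood and on array 5 in lung. None of these was well above background, so they give no order of Myc levels. The sites overlapped. The difference from blood was 1.44 in liver (adjusted p = 0.997), 0.82 in lung (adjusted p = 0.47) and 1.08 in small intestine (adjusted p = 0.34), each with an SE of 0.87. These sizes are uncertain because Myc was not well above background on 11 of the 20 arrays.

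No member passed in liver against blood. In this comparison limma called 0 of 8 members and 0 of 8056 genes (0%), with 0 members and 226 genes at an unadjusted p under 0.05. The members' differences ran from -0.86 for Ccne1 to 1.44 for Myc. In lung against blood limma called 0 members, beside 0.819% of all tested genes, with 2 members and 2721 genes at an unadjusted p under 0.05, and Cdkn1a and Cdkn1b had the smallest adjusted p-values, 0.099 and 0.13. The 3 comparisons with blood share the blood arrays.

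Between the organs, limma called 0 members in lung against liver, beside 0.286% of all tested genes, and 0 in small intestine against lung, beside 0.149%. At an unadjusted p under 0.05 there were 1 member and 1197 genes in lung against liver, and 3 members and 665 genes in small intestine against lung. Small intestine against liver gave 0 members and 0 genes (0%), with 6 members and 1777 genes at an unadjusted p under 0.05. The members' differences in that comparison were -1.42 (SE 0.40, adjusted p = 0.14) for Ccnd3, -1.78 (SE 0.59, adjusted p = 0.14) for Ccne1, -2.48 (SE 0.65, adjusted p = 0.14) for Cdkn2c and 1.63 (SE 0.73, adjusted p = 0.21) for Cdkn1a. On slide 5, which holds the arrays labelled liver 5 and small intestine 5, each of the 4 differences had the opposite sign to that on the other 4 slides. Without those arrays 4 of 8 members passed in small intestine against liver, beside 16.3% of all tested genes, with Cdkn1a at 2.33 (adjusted p = 0.048). Against lung 3 passed then, beside 2.63% of the genes. Over the 4 sites at once 0 members passed the F-test of limma, beside 0.757% of all tested genes, with 4 members at an unadjusted p under 0.05 and adjusted p-values of 0.056 for Ccnd3, 0.063 for Ccne1, 0.077 for Cdkn2c and 0.085 for Cdkn1a, and 4 members and 18.8% of the genes passed without the 2 arrays.

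The genes most like each member were found by the correlation of log2 levels over the 20 arrays, which share their scaling and the differences between sites. Those most like Ccnd3 were Osbpl5 (Pearson r = 0.95) and Kif22 (0.95), and those most like Ccne1 were Ak6 (0.93) and Mettl16 (0.90). For Cdkn2c they were Depdc1b (0.91) and Klra7 (0.91), for Cdk4 Psph (0.97) and Ndufb4 (0.95), and for Cdkn1b Mbp (0.87) and Tacc1 (0.85). Cdkn1a was most like Gdf15 (0.93) and Cd74 (0.90), of which Cd74, the invariant chain of MHC class II, is one of the dendritic cell markers above. Ccnd2 was most like N4bp3 (0.78) and E2f8 (0.77), and Myc most like Spry1 (0.74) and Dusp6 (0.72). By ranks these pairs had a Spearman rho of 0.54 and 0.52 for Ccnd2 and of 0.72 and 0.59 for Myc. The pairs of the other members had 0.75 to 0.95. With the liver 5 and small intestine 5 arrays left out, the same pairs of all members had Pearson r of 0.73 to 0.97. Genes chosen in this way follow the members' site differences by construction.

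Genes that act in or beside G1 control, among them mitotic cyclins, S phase and mitosis markers, MYC and p53 targets and quiescence genes, were taken from lists of 134 genes, of which 94 were tested. In small intestine against blood 23 of these were lower, beside 9.94% of all tested genes, and 1 was higher, beside 0.919%. Of the 23, 10 were S phase and mitosis markers, and the median difference was -0.52, against -0.36 over all genes. In lung against blood 1 was lower and none higher, with a median of -0.47 against -0.30, and in liver against blood none was called, with a median of -0.03 against 0.05. In small intestine against blood 38 list genes were lower and 1 higher once the liver 5 and small intestine 5 arrays were left out, beside 21.6% of all tested genes that were lower, and the 17 list genes named below as lower or higher all passed in the same direction. In the same comparison 0 were called with the percentile over probes well above background everywhere, and 14 were lower with the deposited value table. With 1 array left out the number lower was 0 without small intestine 2, 4 without blood 5, 8 without blood 2 or small intestine 4, 10 without blood 3, 12 without small intestine 1, 36 without small intestine 5, and 18 to 31 without any other array.

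Of all tested genes 9.94% were lower in small intestine than in blood, and of 5 other cyclins tested 2 were lower. Ccnb1, a mitotic cyclin, averaged 1.13 ± 0.90 in small intestine and 3.45 ± 0.51 in blood (SD, n = 5 each) and fell by 2.32 (SE 0.48, limma adjusted p = 0.017). Ccna2, the cyclin of S phase and G2, fell by 1.39 (SE 0.36, adjusted p = 0.025). Of 7 other CDKs and activators 2 were lower, the phosphatase Cdc25b by 1.37 (SE 0.33, adjusted p = 0.021) and the CDK-binding Cks2 by 1.47 (SE 0.43, adjusted p = 0.038). Both other inhibitors tested were lower as well. Cdkn2d, another INK4 inhibitor, averaged 3.601 ± 0.86 in small intestine and 5.07 ± 0.33 in blood and fell by 1.46 (SE 0.35, adjusted p = 0.019), and Cdkn3, a phosphatase that acts on CDKs, fell by 2.13 (SE 0.64, adjusted p = 0.041).

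Of 11 genes of the RB and E2F families 3 were lower in small intestine and none higher, beside the 9.94% of all tested genes that were lower. The activator E2f1 fell by 0.96 (SE 0.23, limma adjusted p = 0.020), the activator E2f2 by 2.22 (SE 0.55, adjusted p = 0.023) and the repressor E2f6 by 1.65 (SE 0.52, adjusted p = 0.046). Among 9 genes of ubiquitin ligases that act on G1 regulators, Fbxw7, whose product targets cyclin E and MYC, fell by 1.41 (SE 0.31, adjusted p = 0.017) and Fzr1, an activator of the anaphase-promoting complex, by 1.85 (SE 0.56, adjusted p = 0.041). Of 15 genes of S phase and mitosis 10 were lower, with a median of -1.10. The ribonucleotide reductase subunits Rrm1 and Rrm2 fell by 1.24 (SE 0.27) and 1.43 (SE 0.31), each with an adjusted p of 0.017, and the mitotic kinase Plk1 fell by 1.37 (SE 0.31, adjusted p = 0.018).

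Of 5 genes of the MYC network Mxd3, a partner of MAX, was lower in small intestine, by 1.25 (SE 0.37, limma adjusted p = 0.038). Of 17 MYC targets 1 was lower, a smaller share than the 9.94% of all tested genes. It was Polr1b, a subunit of RNA polymerase I, which fell by 0.98 (SE 0.29, adjusted p = 0.037) and, in lung against blood, by 1.26 (SE 0.29, adjusted p = 0.043). Of 14 genes of the p53 response 1 was higher in small intestine, beside 0.919% of all tested genes. It was Gadd45b, a stress-induced gene, which rose by 2.22 (SE 0.59, adjusted p = 0.028), with 3.42 ± 1.00 in small intestine and 1.19 ± 1.15 in blood. Gadd45b was also above blood, without a call, in liver by 1.63 (adjusted p = 0.997) and in lung by 1.21 (adjusted p = 0.15). In small intestine against liver its difference was 0.59 (adjusted p = 0.56). The median of that list was 0.33 in small intestine against blood, against -0.36 over all genes. It was 0.16 against -0.30 in lung, and 0.15 against 0.05 in liver. Trp53 itself was at -0.67 (adjusted p = 0.075) and Mdm2, its negative regulator, at 0.31 (adjusted p = 0.47). None of 10 genes of FOXO and KLF factors and quiescence passed.

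**Figure D5:**
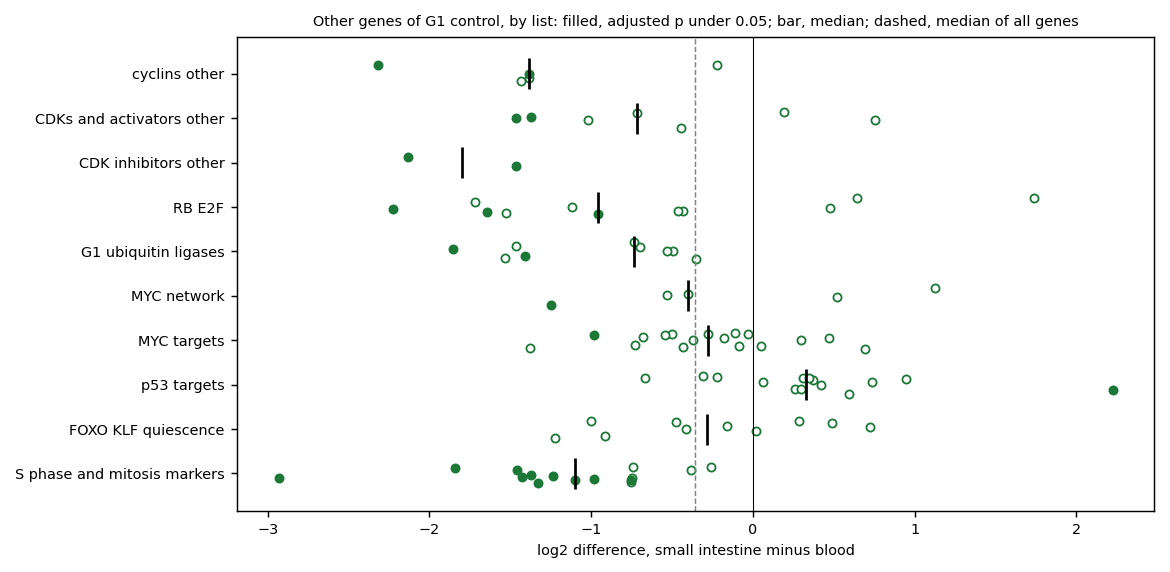
Log2 differences between small intestine and blood (x axis) of the tested genes of the 10 lists (y axis), with 1 point per gene. Filled points had an adjusted p under 0.05, the short bars are list medians, and the dashed line is the median of all tested genes at -0.36. The filled points lie left of 0 except for Gadd45b among the p53 targets, and 10 of them are in the list of S phase and mitosis.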

How the data were processed

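Total RNA of magnetically selected CD45.1+ cells was amplified in 2 rounds and labelled with Cy3, per the labels' protocols, and hybridised to 20 one-colour Agilent arrays. The processed signal intensity was produced by the authors with Feature Extraction, version 11.0.1.1 per the file headers (the submitters' processing notes name 10.7 and Partek). The flags for controls, non-uniform spots and spots well above background are other values taken as deposited. The authors' deposited value table, on a log2 scale, matches quantile-normalized processed signal (median absolute difference 0.000108) and was an alternative.

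Of 44397 spots, 1377 controls and 24 non-uniform spots were left out. The log2 intensity minus the array's 75th percentile was averaged per probe. Through RefSeq accessions (GRCm38.p6), 27508 of 39429 probes had a symbol and 11921 had none. The brightest probe stood for a gene, and genes were tested if that probe exceeded background clearly on 4 or more of 5 arrays of any site. limma 3.58.1 in R 4.3.3 fitted 1 coefficient per site (16 residual degrees of freedom), two-sided, with Benjamini-Hochberg adjustment over 8056 genes per comparison at 0.05. The fit was tested on simulated data. Normexp used median signals, since mean signals are not used here. Members are named whatever their values. Up to 3 called genes per list and the 2 genes most correlated with each member are also named. Trp53 and Mdm2, which were not called, are named outside this rule. Members and lists were chosen with earlier results of these data known.

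The replicate number is the slide, which held 1 array of each site. Of 30 same-number pairs 18 had residual correlations over 0.1 (-0.374 to 0.562, median 0.156). The median of 120 other pairs was -0.052, so arrays of the same slide tended to be more alike. The main fit had no term for the slide, which entered only as a block in an alternative. Alternatives were other scalings, background correction, filters, probe averaging, the slide as a block, and arrays left out. Leaving out both arrays labelled liver 5 and small intestine 5 together with the other scaling, and repeating the list counts under each alternative, were chosen after seeing the data. Figures were drawn with matplotlib 3.10.9.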

Additional observations from a re-analysis of the deposited data

Results flagged for a closer look

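Cdkn1b on liver array 3 lay apart from the other liver arrays. Its log2 level was 0.953, while the nearest other liver array had 1.34, and this gap was 0.825 of the whole range of the site, above the critical value of 0.71 for 5 arrays in Dixon's test. It was 1 of 32 combinations of gene and site checked, and chance flags about 1 in 20 of them.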

How the results depend on the processing

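In small intestine against blood, 875 genes passed, against 495 with the deposited value table, 19 with the percentile over probes well above background on all arrays, 255 without the filter on dim probes, 2117 with the arrays labelled liver 5 and small intestine 5 left out, and 1916 without those arrays and with that scaling. The members that passed, 4 of 8, were 0 with that scaling, 2 without the filter (10 tested) and 1 with only probes well above background on all arrays (3 tested, beside 650 of 4544 genes), and with arrays left out one at a time 0 to 5 members and 0 to 2033 genes passed. With the slide as a replicate block 5 members and 1163 genes passed, Cdk4 being added (adjusted p = 0.043). The block changed no other call of a member.

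In lung against blood, 66 genes passed, against 26 with the deposited table, 24 with the other scaling, 0 with only probes well above background on all arrays (1633 at an unadjusted p under 0.05 in limma), 114 with the slide as a replicate block, 175 without the 2 arrays and 531 without them and with the other scaling, where 1 member, Cdkn1b, passed. Leaving out 1 array gave 16 to 846 genes and 0 to 1 members. In liver against blood 2 genes passed without the filter, 3 with the block and 0 to 2 with 1 array left out, and no member did in any of these.

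In lung against liver, 23 genes passed, 0 with normexp (1026 at an unadjusted p under 0.05), 0 with only probes well above background on all arrays (566), 5 without the 2 arrays and with the other scaling, and 10 to 65 with 1 array left out. Small intestine against lung gave 12, 0 with normexp (456), 27 with the deposited table (10 higher and 17 lower), 20 with the other scaling (12 higher and 8 lower, against 1 and 11), 0 with only probes well above background on all arrays (351), 7 with the mean of a gene's probes, 212 without the 2 arrays, 111 without them and with the other scaling, and 3 to 118 with 1 array left out. Members there were 3 without the 2 arrays, 1 with the other scaling as well, and 0 to 1 with 1 array left out. In small intestine against liver, 1310 genes and 4 members passed without the 2 arrays, 869 and 3 with the other scaling as well, and 0 to 823 and 0 to 3 with 1 array left out. In the F-test 0 members and 61 genes passed, against 4 and 1511 without the 2 arrays, 5 and 1466 with the other scaling as well, and 0 to 4 and 13 to 1064 with 1 array left out. The cause of these changes was not tested.

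Differences that changed sign were between -0.37 and 0.26 in the main fit, and none was called. Cdkn2c in liver against blood was -0.096 with the other scaling and -0.110 to 0.50 with 1 array left out, below 0 without liver 1, 2 or 4 or blood 4. Ccnd3 in lung against liver was -0.0078 with normexp, -0.223 without the 2 arrays, -0.223 to 0.284 with 1 array left out, and -0.344 without the 2 and with the other scaling, and Ccne1 was -0.065, -0.374 and -0.494, with -0.374 to 0.344 with 1 array left out. For small intestine against lung, Cdkn1a was 0.025 with normexp, 0.055 with the other scaling, 0.159 without the 2 arrays, 0.363 with both changes and -0.733 to 0.318 with 1 array left out. Cdkn1b was -0.021 with the deposited table, -0.225 without the 2 arrays, -0.020 with both changes and -0.225 to 0.174 with 1 array left out. Leaving out 1 array gave -1.16 to 0.0999 for Myc in small intestine against liver, and in small intestine against lung -0.451 to 0.146 for Ccnd2 and -0.229 to 0.841 for Myc. Signals near background limit Cdkn1a, Cdkn2c and Myc, which were well above it on 13, 16 and 9 of the 20 arrays.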
